A study of Mus musculus with 4 samples.

Results

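Open chromatin at genes for long non-coding RNAs (lncRNAs) was described in whole lungs of wild-type mouse embryos at E15.5 by ATAC-seq, which marks accessible DNA by where a transposase can cut it. The 4 libraries formed 1 group, each from 60000 nuclei of lung tissue labelled as snap-frozen, and no mutant, treated or other-age sample was analysed here. A peak is an interval that the authors called as enriched in cuts in 1 library. Peaks on chromosomes 1 to 19 were merged across libraries, and a merged region with a peak of every library was called shared. A shared region was a member when it lay within 1 kb of an annotated end of a lncRNA gene and more than 2 kb from any end of a protein-coding gene. In all, 3894 of 64838 shared regions met this rule, and they served 3425 of 12408 annotated lncRNA genes, or 27.6%. Of the 11821 lncRNA genes with an end more than 2 kb from coding genes, 28.9% were served. Of the merged regions in such lncRNA windows, 32.2% were shared, against 18.0% of the other regions over 2 kb from protein-coding ends, 54.7% of those within 1 kb of such ends and 21.7% of all; the rule itself set this count, and nothing is read from it.

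The lists held 131449, 180007, 208926 and 187928 peaks on these chromosomes in replicates 1 to 4. The median fold of all peaks was 8.99 in replicate 1 and 3.73 to 3.899 in the others, so replicate 1 had the fewest peaks and the highest folds. Peak names in the list of replicate 1 carried a French term meaning fresh, while frozen stood in those of the other lists, although the protocol on the labels was the same for all. Nothing on the labels tied a library to an embryo or a litter, so an SD over libraries may be technical. As a check of the tissue, all 5 lung genes looked at (Nkx2-1, Foxf1, Tbx4, Sftpc and Foxa2) had a peak of every library within 1 kb of an end. Of all protein-coding genes 68.5% had such a peak, so this count alone cannot tell lung from another tissue.

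LncRNAs are transcripts that are not translated into protein. Some act where they are made, as Kcnq1ot1 and Airn do when they silence imprinted neighbours on 1 parental chromosome, some scaffold nuclear bodies, as Neat1 does, and others are mainly carriers of microRNAs or of the small nucleolar RNAs that guide the chemical modification of ribosomal RNA. Many lie beside genes for developmental transcription factors, and an open region at a lncRNA end may be its promoter or an enhancer that is transcribed. ATAC-seq measures access to the DNA and not the amount of any transcript.

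The start windows of 7 member genes are shown because regions over CpG-rich starts ranked above the others, CpG being the dinucleotide that is dense in CpG-island promoters. Each window runs from 250 bases before to 50 bases after the annotated start, reads 5′ to 3′ along the gene, and is from RefSeq on GRCm38.p6, the assembly that mm10 represents. CpG dinucleotides are in capitals. They belong to Chaserr (chr7:73558346-73558645, minus strand), Snhg5 (chr9:88522848-88523147, minus), Gm20554 (chr13:72628515-72628814, minus), Meg3 (chr12:109540746-109541045, plus), Kcnq1ot1 (chr7:143296498-143296797, minus), Dnm3os (chr1:162217373-162217672, plus) and BC006965 (chr11:112711307-112711606, minus).
Chaserr: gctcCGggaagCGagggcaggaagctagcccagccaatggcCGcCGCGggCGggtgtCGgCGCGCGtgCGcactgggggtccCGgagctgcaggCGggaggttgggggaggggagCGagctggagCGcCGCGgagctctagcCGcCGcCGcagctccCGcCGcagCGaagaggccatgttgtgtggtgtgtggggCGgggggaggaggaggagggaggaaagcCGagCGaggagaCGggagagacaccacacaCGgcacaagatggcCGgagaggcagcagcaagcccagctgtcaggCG
Snhg5: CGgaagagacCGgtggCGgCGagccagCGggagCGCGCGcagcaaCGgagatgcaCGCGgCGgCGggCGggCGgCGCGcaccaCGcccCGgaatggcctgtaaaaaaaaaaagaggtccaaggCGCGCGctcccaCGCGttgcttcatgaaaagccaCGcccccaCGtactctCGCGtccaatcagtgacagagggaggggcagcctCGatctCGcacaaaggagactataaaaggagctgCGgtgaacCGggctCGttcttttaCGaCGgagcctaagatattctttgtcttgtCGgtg
Gm20554: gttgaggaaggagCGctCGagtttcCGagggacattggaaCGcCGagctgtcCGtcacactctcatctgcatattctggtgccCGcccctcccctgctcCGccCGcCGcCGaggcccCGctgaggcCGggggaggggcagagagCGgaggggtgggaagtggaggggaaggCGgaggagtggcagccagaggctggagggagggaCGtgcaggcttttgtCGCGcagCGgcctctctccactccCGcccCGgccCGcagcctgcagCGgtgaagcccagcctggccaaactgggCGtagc
Meg3: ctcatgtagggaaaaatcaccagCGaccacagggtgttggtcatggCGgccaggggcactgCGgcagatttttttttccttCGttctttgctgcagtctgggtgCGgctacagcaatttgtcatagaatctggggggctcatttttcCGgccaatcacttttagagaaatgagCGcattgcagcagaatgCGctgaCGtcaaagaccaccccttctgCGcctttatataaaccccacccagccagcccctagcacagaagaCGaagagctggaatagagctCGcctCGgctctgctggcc
Kcnq1ot1: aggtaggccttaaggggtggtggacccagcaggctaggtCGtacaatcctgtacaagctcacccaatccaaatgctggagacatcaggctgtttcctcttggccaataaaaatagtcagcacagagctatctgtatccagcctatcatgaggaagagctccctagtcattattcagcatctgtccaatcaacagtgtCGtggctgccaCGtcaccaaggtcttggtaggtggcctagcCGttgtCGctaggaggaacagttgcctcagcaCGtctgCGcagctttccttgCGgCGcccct
Dnm3os: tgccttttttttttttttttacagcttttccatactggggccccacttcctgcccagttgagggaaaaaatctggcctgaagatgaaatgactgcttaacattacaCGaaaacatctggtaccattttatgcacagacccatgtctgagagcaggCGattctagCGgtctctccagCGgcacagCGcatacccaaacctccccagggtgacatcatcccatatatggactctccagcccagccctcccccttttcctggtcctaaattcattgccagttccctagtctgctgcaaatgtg
BC006965: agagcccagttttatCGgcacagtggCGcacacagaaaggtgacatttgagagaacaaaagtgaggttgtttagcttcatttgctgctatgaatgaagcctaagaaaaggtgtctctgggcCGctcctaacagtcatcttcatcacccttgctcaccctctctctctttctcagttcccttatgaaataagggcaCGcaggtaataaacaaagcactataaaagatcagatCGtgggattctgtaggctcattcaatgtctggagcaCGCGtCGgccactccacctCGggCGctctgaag
Chaserr, Snhg5 and Gm20554 had 30, 36 and 24 CpGs in these windows, Meg3 had 13, BC006965 had 10, Kcnq1ot1 had 9 and Dnm3os had 5. The Snhg5 window held TATAAA with its first base 23 bases before the start, and 2 overlapping matches to GGGCGG at 186 and 182 bases before it, positions being counted back from −1. Meg3 held TATAAA at −25, overlapped by its reverse complement TTTATA at −29, and the palindrome TGACGTCA at −57. BC006965 held TATAAA at −34, Kcnq1ot1 held CCAAT at −188, −148 and −67, and Chaserr held GGGCGG at −203 and −58. Gm20554 held its reverse complement, CCGCCC, at −168, −152 and −7. None of the 11 motifs searched was found in the Dnm3os window.

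Member regions stood between other distal regions and protein-coding gene ends in strength. Strength was read as a percentile, the rank of a region's strongest peak by the authors' fold among all peaks of its own library, because the folds of the libraries differed in scale. The summit of that peak need not lie at the lncRNA end, so a percentile describes the whole region. Many weak peaks share 1 fold value, so low percentiles come in steps. The median percentile of members was 71.1, 81.2, 84.0 and 82.5 in replicates 1 to 4, against 66.5, 76.5, 79.2 and 76.3 for the 44003 other distal shared regions. At the 15096 shared regions within 1 kb of protein-coding ends it was 87.9, 93.7, 94.4 and 94.0. Every library had the same order of the 3 sets. In whole tissue, a region open in fewer cells and a region less open in each cell cannot be told apart.

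**Figure D1:**
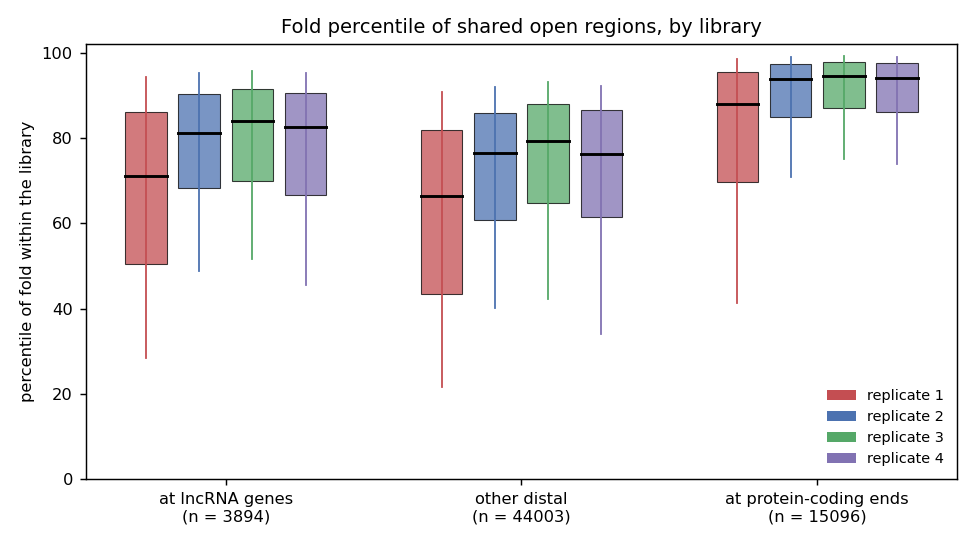
Percentile of fold within each library (y axis) for shared regions at lncRNA genes, other distal shared regions and shared regions at protein-coding ends, with 1 box per library. Boxes span the quartiles, black bars mark medians and lines span the 10th to 90th percentiles of regions; the lncRNA medians, 71.1 to 84.0, lie above those of other distal regions and below those of protein-coding ends in each library.

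The members exceeded the other distal regions by 4.65, 4.71, 4.84 and 6.23 percentile points, a mean difference of 5.11 ± 0.756 (SD, n = 4 libraries; exact two-sided sign-flip permutation test, p = 0.13). The difference from protein-coding ends was −16.8, −12.5, −10.5 and −11.5 points in replicates 1 to 4, with a mean of −12.8 ± 2.78 (SD, n = 4; exact permutation p = 0.13). Without replicate 1, whose list stood apart, the differences were 6.36 and −15.4 points. The excess over other distal regions was 2.90 points when lncRNA ends were given a window of 2.5 kb and 7.999 when regions of at least 3 of 4 libraries were kept, so its size moved by more than 1.5 times with the rule. With 4 libraries 0.13 is the smallest p this test can give, and over the 3 comparisons tested the adjusted p was 0.13 for each. Members were also wider, with a median of 1701.5 bp against 1186 bp for other distal regions, and in 4 equal classes of width the difference was −0.969 ± 1.94, −1.89 ± 1.27, −0.646 ± 0.746 and 2.54 ± 0.868 points from the narrowest to the widest (SD, n = 4). The excess of members was thus present in the widest class and absent from the other classes. Regions at protein-coding ends were wider still, with a median of 2854.5 bp, and the difference of members from those ends was not split by width. Widths were compared after the first result had been seen.

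**Figure D2:**
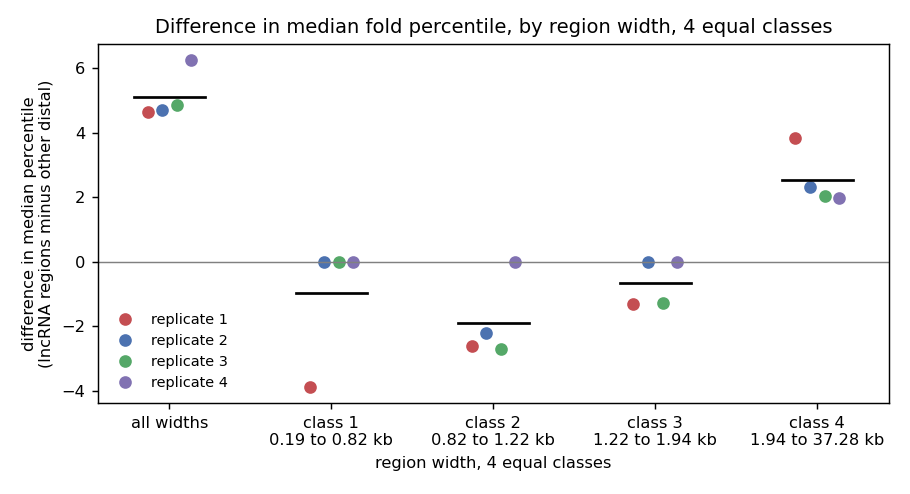
Difference in median percentile of fold, lncRNA regions minus other distal shared regions (y axis, percentile points), over all widths and within 4 equal classes of region width (x axis, kb). Points are libraries and black bars their means; the points lie at 4.65 to 6.23 over all widths, at or below 0 in the 3 narrower classes and above 0 in the widest.

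Above the 90th percentile in every library stood 568 members, or 14.6% (Wilson 95% interval 13.5 to 15.7, counting error only), beside 7.30% of other distal regions, 44.0% of regions at protein-coding ends and 16.3% of all shared regions. The share of members was 9.12% when peaks were kept at a deposited −log10 q of at least 5, outside that interval. A mean percentile above 99 was reached by 31 members, and 438, or 11.2%, stayed below 50. The median SD of a member's percentile over libraries was 7.85, against 10.4 for other distal regions and 3.07 at protein-coding ends. Replicate 1 gave the lowest percentile of 2384 members, or 61.2%. Across the 3894 members, the Spearman correlation between libraries was 0.716 to 0.80 for pairs with replicate 1 and 0.873 to 0.904 for the other pairs, as a description across regions of 1 genome. Members made up 5.07% of the shared regions of chromosome 3 and 7.18% of those of chromosome 12, the lowest and highest of the 19.

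The highest member was at the start of 2700054A10Rik (chr17:13550137-13554017), with a fold of 440.7, 568, 568 and 632 in replicates 1 to 4. It ranked at 99.93 in replicate 1 and higher still in each of the others, its summits lay over 1 kb from the annotated end in every library, and its fold was lower in replicate 1. At LOC115487798 (chr11:87440916-87445783), within the protein-coding gene Tex14, fold was 538 in replicate 1 and 189, 138 and 136 in the others, a mean percentile of 99.96 ± 0.0193. D130051D11Rik (chr15:85632193-85636884) lay 50.4 kb from Wnt7b, which encodes a Wnt ligand of the airway epithelium, and stood at 99.92 ± 0.0161. Gm38543 (chr12:85449843-85459079), 14.8 kb from the immediate-early gene Fos, stood at 99.85, and Gm9530, 9.35 kb from the immediate-early gene Ier5, at 99.54. Gm41853 lay 6.24 kb from Scd2, a fatty acid desaturase gene, at 99.82, Gm32518 lay 3.39 kb from Crabp2, a retinoic acid binding protein gene, at 99.63, and Gm46600 lay inside Axin1, a scaffold of the Wnt pathway, at 99.61. These regions differed between libraries by less than 1 percentile point.

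Chaserr, a lncRNA that in mouse restrains its neighbour Chd2, a chromatin remodeller gene, had members at both ends. The region over its start (chr7:73557543-73560838) stood at 99.79, 99.87, 99.86 and 99.83 in replicates 1 to 4, and the region at its 3′ end, 2.38 kb from an end of Chd2, at 99.60, 99.72, 99.74 and 99.67. The start region was the higher of the pair in every library.

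Imprinted lncRNAs spanned a range from the top few percent to the median of members. Kcnq1ot1 starts in an intron of Kcnq1 and silences neighbouring genes on the paternal chromosome. Its start region (chr7:143294788-143297654) stood at 95.9, 97.6, 97.4 and 97.4 in replicates 1 to 4. H19, the maternally expressed neighbour of the growth factor gene Igf2, had a member of 14662 bp (chr7:142567795-142582456) at 95.04, 96.9, 97.1 and 98.2. Igf2os, antisense to Igf2, stood at 87.2, 94.3, 94.6 and 96.5, and Airn, which silences Igf2r on the paternal chromosome, at 90.4, 94.8, 93.2 and 93.9. Replicate 1 was the lowest library for each of these genes. At the Dlk1-Dio3 locus, Mirg, which carries microRNAs, stood at its 3′ end at 91.2, 93.2, 95.1 and 93.5, whereas Meg3, made from the maternal chromosome and shown above, stood at 71.6, 84.8, 84.0 and 78.3. A second Meg3 member just beyond its start stood at 79.3 ± 8.94 (SD, n = 4). No peak of any library lay at an annotated end of Rian, which lies between Meg3 and Mirg. Peg13, inside Trappc9, stood at 88.1 ± 8.71.

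**Figure D3:**
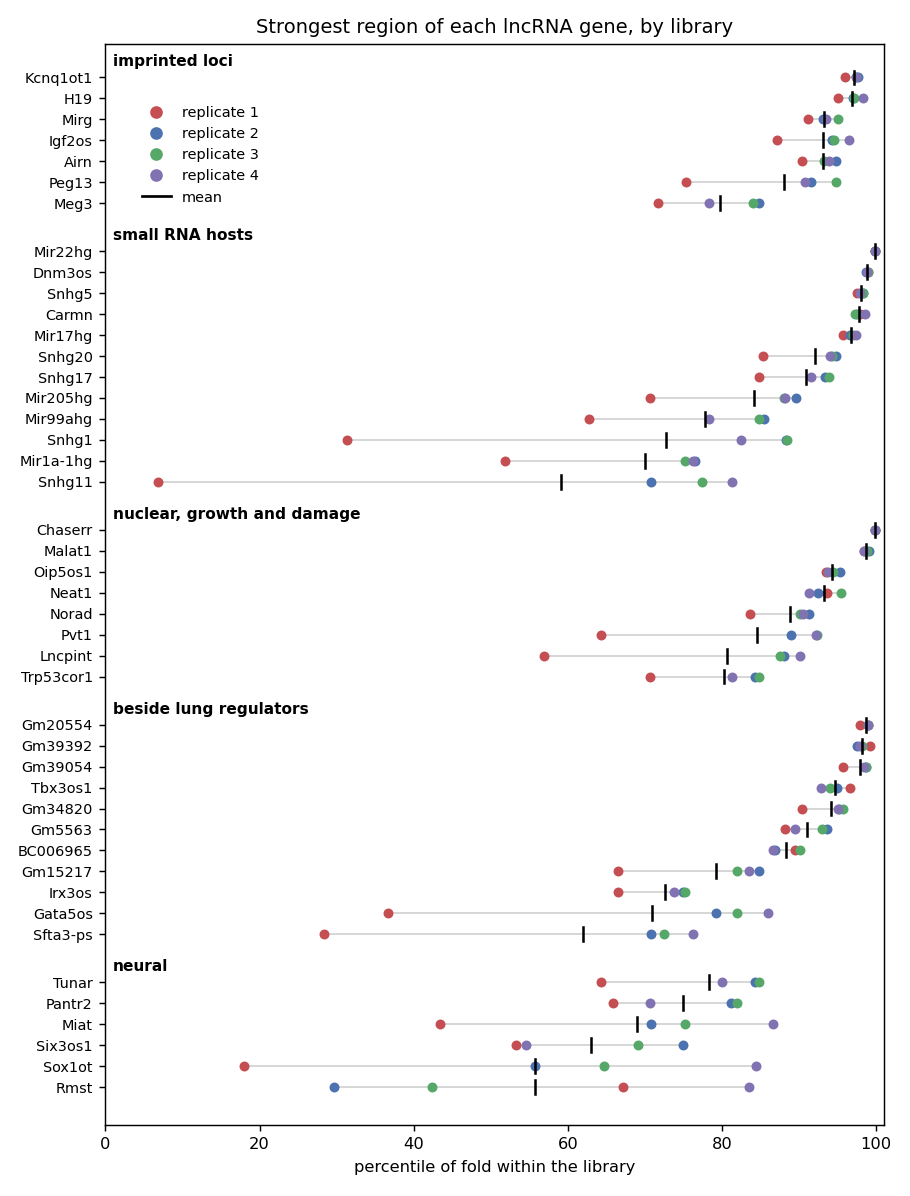
Percentile of fold (x axis) of the strongest member region of each named lncRNA gene, with 1 point per library, a black bar at the mean and genes in 5 groups. Mir22hg, Chaserr and Dnm3os lie above 98.7 in all 4 libraries, and the point of replicate 1 lies far left of the others at Snhg1, Snhg11 and Gata5os.

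Carriers of microRNAs included some of the strongest and most even members. Mir22hg, the host of miR-22, stood at 99.88, 99.90, 99.91 and 99.88 over its start (chr11:75457584-75465725). Dnm3os runs antisense inside Dnm3 and carries miR-199a-2 and miR-214, which are made in mesenchyme. Its start region (chr1:162216560-162218229) stood at 98.97, 98.7, 98.9 and 98.8, with a mean of 98.9 ± 0.114, and 2 weaker members at its 3′ end stood at 81.2 ± 6.49 and 78.8 ± 12.7 (SD, n = 4). Carmn, which carries miR-143 and miR-145 of smooth muscle, stood at 98.0, 97.5, 97.3 and 98.6 (chr18:61663031-61669198). Bvht, named for its part in heart cell fate in mouse, lies beside it and stood at 94.7, 94.2, 96.1 and 94.5, and a further member at 91.6 ± 6.46 served both genes. Mir17hg carries the miR-17-92 cluster, which promotes growth of lung progenitors in mouse, and stood at 95.7, 96.6, 97.0 and 97.4. In every library the strongest summit of the Mir17hg region lay over 1 kb from the annotated end. Dleu2, the host of miR-15a and miR-16-1, stood at 97.0 ± 1.46. Mir205hg, the host of a microRNA of basal epithelium, stood at 70.6, 89.6, 88.0 and 88.2, Mir99ahg at 77.8 ± 10.6, and Mir1a-1hg, which carries microRNAs of striated muscle, at 51.9, 76.5, 75.1 and 76.3. In each of these last 3 genes replicate 1 was the lowest library.

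Hosts of small nucleolar RNAs had members from the top of the lists to below the median of members. A low member was not always the only shared region of its gene. Snhg5 (chr9:88518622-88524628) stood at 97.5, 98.3, 98.3 and 98.0 in replicates 1 to 4. Snhg17 stood at 90.9 ± 4.19 at its start and 46.9 ± 32.5 at its 3′ end, the latter at 1.37 in replicate 1. Snhg20 stood at 89.7 ± 6.20 at its start and 92.1 ± 4.58 at its 3′ end (SD, n = 4). The Snhg1 member lay at the 3′ end, with the strongest summit of every library over 1 kb from that end, and stood at 31.4 in replicate 1 and at 88.4, 88.5 and 82.5 in the others. The other shared region of Snhg1 lay within 2 kb of a protein-coding end, outside the rule, and stood at 98.7 ± 0.632. Snhg11, whose member was its only shared region, stood at 6.81 in replicate 1 and at 70.8, 77.3 and 81.3 in the others. For the members of Snhg1 and Snhg11 replicate 1 thus lay far below the range of the other libraries. The shared regions of 7 more hosts (Gas5, Snhg3, Snhg6, Snhg8, Snhg12, Snhg18 and Zfas1) also lay within 2 kb of a protein-coding end, and their means were 92.8 to 99.6.

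Among lncRNAs of the nucleus, of growth control and of the damage response, Malat1, a component of nuclear speckles, had members at 98.4, 99.1, 98.8 and 98.5 at its start (chr19:5801825-5813093) and at 89.2 ± 8.55 at its 3′ end. Neat1, the scaffold of paraspeckles, had a member at 93.6, 92.5, 95.4 and 91.3 and a further shared region within 2 kb of a protein-coding end. Oip5os1, also called Cyrano, which binds miR-7, stood at 94.3 ± 0.837, and Norad, which binds Pumilio proteins, at 88.9 ± 3.56. Pvt1, the lncRNA beside the growth regulator gene Myc, stood at 64.4 in replicate 1 and at 89.0, 92.4 and 92.2 in the others. Lncpint and Trp53cor1, both induced by p53, stood at 80.7 ± 15.8 and 80.3 ± 6.60, the second 7.86 kb from Cdkn1a, a cell cycle inhibitor gene.

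Regions next to regulators of lung epithelium were compared with regions next to regulators of other cell types by the nearest protein-coding gene. Of the members, 35 (0.899%) were nearest to 1 of 33 epithelial genes, against 0.732% of other distal regions, and their median mean percentile was 84.8, against 70.9 for other distal regions next to the same genes. The region at the start of Gm20554 lay inside Irx2, an Iroquois factor gene, and 2.4 kb from an end of it. It stood at 97.8, 98.9, 98.9 and 98.9. Gm39392 lay 3.3 kb from Etv4, a target of FGF signalling in the distal tips, at 99.2, 97.5, 98.2 and 97.9. Regions 16.5 kb from Cebpa, a factor of alveolar cell maturation, stood at 95.3 ± 0.946 (Gm35665 and Gm35724, 1 region), and 1 region 94.97 kb from Grhl2, a regulator of epithelial junctions, at 94.1 ± 2.48 (Gm34820 and Gm41301). BC006965, shown above, lies 69.7 kb from Sox9, a factor of distal tip progenitors, and stood at 89.5, 86.8, 90.1 and 86.6, while Gm30562, 22.6 kb from Sox9, stood at 65.8 ± 16.3. Gm33661 and Gm33555, on separate regions next to Fgfr2, the epithelial FGF receptor gene, both stood at 89.5. Sfta3-ps, 3.5 kb from Nkx2-1, the master regulator of lung epithelium, was weaker, at 28.4 in replicate 1 and 70.8, 72.4 and 76.3 in the others. Irx3os stood at 72.6 ± 4.10. Weaker members of this list included Gm34061 next to Klf5 at 44.7 ± 17.9 and Gm17746 next to Id2 at 53.1 ± 2.45. Gm36670, next to Irx3, stood at 48.9 ± 12.8 at its start and up to 90.2 ± 3.06 at its 3′ end.

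For mesenchyme, 33 members (0.847%) were nearest to 1 of 36 genes, against 0.964% of other distal regions, with medians of 73.7 and 71.1. Gm39054 lay 9.6 kb from the ligand gene Wnt11, in a region of 14826 bp at 95.7, 98.6, 98.6 and 98.4. The T-box genes Tbx3 and Tbx5, active in lung mesenchyme, had several. Tbx3os1 stood at 96.6, 94.9, 94.1 and 92.8, AW549542 at 93.4 ± 1.68 and Gm16063 at 89.9 ± 1.02, but Tbx3os2, the closest of these to Tbx3 at 5.5 kb, at 66.6 ± 20.01. Gm5563 had members inside Tbx5, at 91.1 ± 2.63, 83.6 ± 2.80 and 79.0 ± 3.73 (SD, n = 4). Gm15217, 2.3 kb from the ligand gene Bmp4, stood at 66.5 in replicate 1 and at 84.8, 81.9 and 83.6 in the others, and Rubie, 176.1 kb from Bmp4, at 65.2 ± 8.34. The members nearest to Foxf1, Gm46071 and Gm33579, were weak, at 44.3 ± 22.5 and 39.0 ± 31.4, as was Gm46217 next to Tcf21, at 48.9 ± 13.7. Foxf1 and Tcf21 encode factors that lung mesenchyme needs.

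Endothelial genes were nearest to 16 members (0.411%, against 0.441% of other distal regions), with medians of 79.2 and 68.2. Muscle and pericyte genes were nearest to 13 (0.334%, against 0.195%), with medians of 73.0 and 71.0. The region of Gm29682 lay inside Cdh5, the gene of vascular cadherin, and 4.0 kb from an end of it. It stood at 86.6, 85.9, 86.3 and 86.0, among the most even members. The region of E130310I04Rik, inside the myosin light chain kinase gene Mylk, stood at 94.3 ± 0.689. That of Gata5os, inside Gata5, stood at 36.7 in replicate 1 and 79.2, 81.9 and 86.0 in the others. Regulators of other organs were nearest to 32 members (0.822%, against 0.555%), with medians of 77.8 and 68.1. The strongest region of 4930412O13Rik, inside Gata3, stood at 96.5 ± 1.06 and that of Gm27197, inside Lhx2, at 93.8 ± 1.68. The lists were chosen with earlier results known, and differences between them were not tested. Taking every member, the nearest protein-coding gene had a shared region at an end of its own for 84.3%, beside 84.0% for other distal regions and 68.5% of all protein-coding genes.

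Some coding genes had many members around them. Tle3, a Groucho corepressor gene, and Zmiz1, a transcriptional coactivator gene, were each the nearest gene of 12, at 8 and 9 lncRNA genes. Their strongest members stood at 97.0 and 98.3 and their weakest at 36.6 and 27.8. Hes1, a Notch target, was nearest to 7 and Id2, a marker of distal tips, to 6. These genes also had 27, 49, 31 and 20 other distal shared regions, in the order Tle3, Zmiz1, Hes1 and Id2. The median distance to the nearest coding gene end was 25.5 kb for members, against 27.4 kb for other distal regions, and 14.3% of members, against 17.5%, lay over 100 kb away.

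Of lncRNAs known from neural tissue, 6 had a member with a mean below the median of members, a group put together after the values were seen. Pantr1 stood higher, at 90.7 ± 2.44, in a region within 2 kb of a protein-coding end. At their annotated ends, Sox2ot, Dlx6os1 and Mir124-2hg had no peak, and Mir124a-1hg and Otx2os1 had no region of every library. The bodies of these genes are not described here. Tunar stood at 78.3 ± 9.58, Pantr2 at 74.9 ± 7.94, Miat at 69.0 ± 18.3 at its 3′ end, Six3os1 at 62.9 ± 10.7, Rmst at 55.7 ± 24.2 and Sox1ot at 55.7 ± 27.9 (SD, n = 4). Rmst stood at 67.2, 29.7, 42.4 and 83.6 and Sox1ot at 18.04, 55.7, 64.7 and 84.5 in replicates 1 to 4. The spread of these last 2 was wider than their distance from the median of members.

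Of 94 lncRNA genes of a fixed list found in the annotation, 44 had a member. The share with a member over all 12408 lncRNA genes was 27.6%, and the difference was not tested. Of the 94, 25 had a shared region that lay within 2 kb of a protein-coding end and so fell outside the rule. Those 25 included Fendrr beside Foxf1 at 96.7 ± 0.410, Gata6os beside Gata6 at 98.6 ± 0.647, Crnde beside Irx5 at 99.4 ± 0.342, Gas5 at 99.6 ± 0.260, Zfas1 at 98.7 ± 0.360 and Tug1 at 97.8 ± 0.607 (SD, n = 4). Fendrr, a lncRNA of lateral mesoderm that lung development needs in mouse, is thus not among the members although it was open. A further 13 had no region of every library at their annotated ends. Among them were Snhg14, Hoxa11os, Nkx2-2os and Otx2os1, of which the last 3 lacked a peak there only in replicate 1. No peak of any library was found at the annotated ends of 12, including Hotair, Sox2ot, Dlx6os1, Mir100hg, Mir155hg and Mir133a-1hg. Peaks elsewhere in these genes are not described here.

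Members at lncRNA starts ranked above members at 3′ ends in every library. Strand was given for 9291 of the 12408 genes, or 74.9%. The 2003 members at starts had a median percentile of 73.0, 83.6, 85.6 and 84.5 in replicates 1 to 4, against 69.0, 77.9, 81.9 and 78.3 for the 993 members at 3′ ends only. The mean difference was 4.87 ± 1.24 points (SD, n = 4 libraries; exact two-sided sign-flip permutation p = 0.13, the smallest possible). It was 7.71 without replicate 1. Starts were higher in 4 of 4 libraries. In 4 width classes of these members the difference was −2.72, 1.96, 0.936 and 4.42 from the narrowest to the widest. Above the 90th percentile in every library were 17.1% of members at starts, 9.37% at 3′ ends only and 14.7% of the 898 whose strand was not given.

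Summits lay nearer to lncRNA starts than to 3′ ends. Members were chosen within 1 kb of an end, which in part sets these distances for both kinds of end. Over 2084 pairs of a member and a start within its reach, the strongest summit lay within 250 bp of the start in 34.6%, 32.4%, 33.5% and 32.2% of pairs, and within 1 kb in 67.7%, 67.7%, 67.7% and 67.8%. Over 1077 pairs of a member and a 3′ end only, the summit lay within 250 bp of that end in 12.1%, 12.9%, 12.2% and 10.2%, and within 1 kb in 53.5% to 54.8%. A pair that also reached the start of its gene was counted only among the starts. The median distance was 544 to 572 bp at starts, against 913 to 924 bp at 3′ ends. Each library thus had a larger share near starts, a comparison added after the first shares had been seen. The remaining summits at starts lay beyond 1 kb, as at 2700054A10Rik, Gm38543, Mir17hg and Lncpint. Counting either end, this held in every library for the named regions of Igf2os, Neat1, Gm39392 and Tbx3os1. It also held for the stronger Bvht region and the 3′ region of Chaserr, and in part of the libraries for the Malat1 start.

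**Figure D4:**
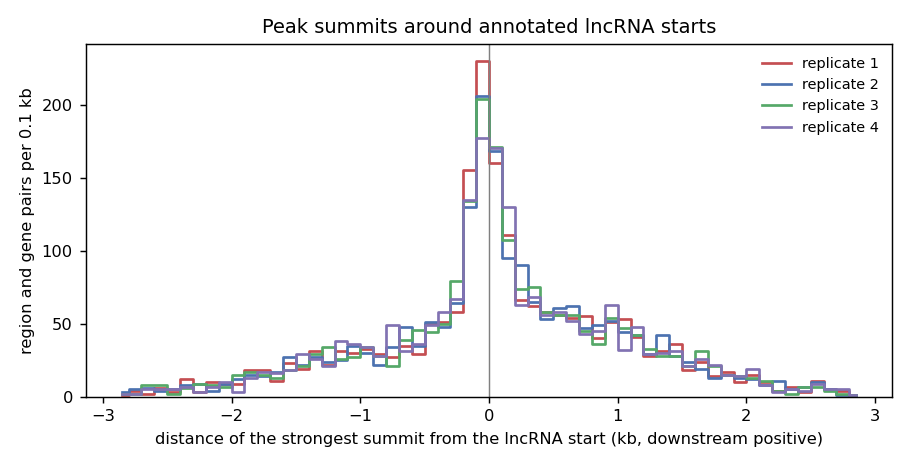
Number of member and gene pairs per 0.1 kb (y axis) by distance of the strongest summit from the annotated lncRNA start (x axis, kb, downstream positive), with 1 line per library. All 4 libraries peak at the start, with 32.2% to 34.6% of summits within 250 bp of it; only regions within 1 kb of the start were taken.

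CpG-rich start windows ranked higher than the others. A window was called CpG-rich at an observed over expected CpG ratio of at least 0.6 and a G+C share of at least 50%. Of 1511 lncRNA start windows under a member, 216 were CpG-rich, or 14.3%. The share was 1.33% of 4885 lncRNA windows over 2 kb from protein-coding ends with no peak in any library. Of all 9291 lncRNA windows it was 12.8%. That last set, also used for the motifs below, includes windows near protein-coding ends, which the member rule leaves out. CpG-rich windows made up 68.8% of the 10980 protein-coding windows under a shared region and 47.3% of all 16456 protein-coding windows. The median percentile was 87.9, 93.5, 94.1 and 94.1 at CpG-rich windows, against 75.3, 84.2, 86.3 and 85.3 at the others, a difference of 9.64 ± 2.05 points (SD, n = 4 libraries) that was positive in 4 of 4. The regions under CpG-rich windows were wider, at a median of 3003 against 2019 bp. In 4 width classes the difference was 7.51 ± 7.26, 3.18 ± 1.94, 6.91 ± 2.03 and 3.54 ± 0.683 points (SD, n = 4). The narrowest class held 19 CpG-rich windows, and its difference was −3.33 in replicate 1. Above the 90th percentile in every library were 41.2% of regions under CpG-rich windows and 17.8% of those under the others. Dnm3os, at 98.9 with 5 CpGs, and Kcnq1ot1, at 97.1 with 9, were strong regions with windows below the CpG-rich limit. The Meg3 window, with a ratio of 0.602 and 53.7% G+C, met the limit, yet its region stood lower, at 79.7 ± 6.11.

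**Figure D5:**
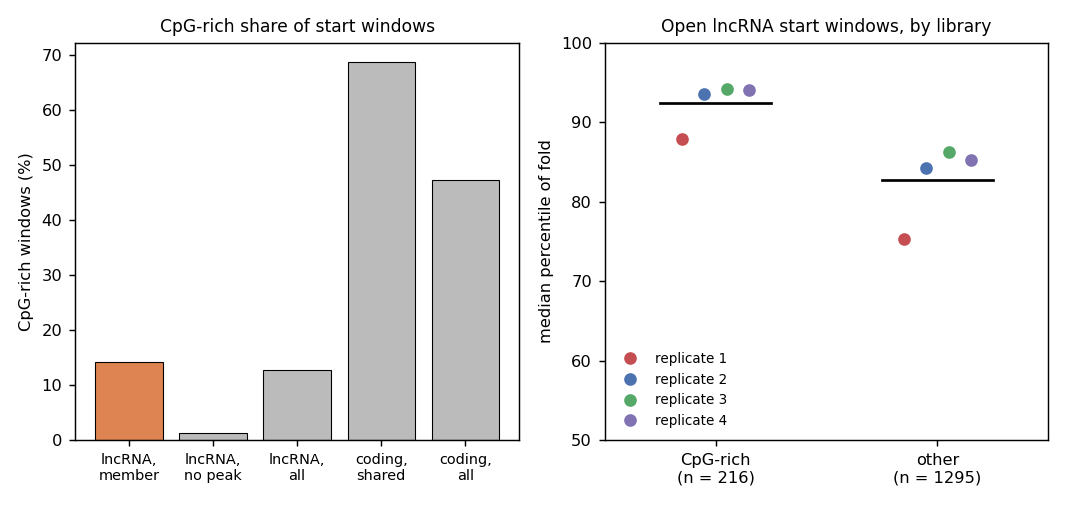
Left, share of CpG-rich start windows (y axis, %) for lncRNA windows under a member, lncRNA windows with no peak, all lncRNA windows, protein-coding windows under a shared region and all protein-coding windows; right, median percentile of fold of member regions over CpG-rich and other lncRNA windows, with 1 point per library and a black bar at the mean. The share was 14.3% under members and 68.8% at open protein-coding windows, and CpG-rich windows lay higher in each library. It was 1.33% at lncRNA windows with no peak, a set limited to windows over 2 kb from protein-coding ends.

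Motifs were searched as letters on both strands of these windows. GGGCGG, the core of a GC box, was in 22.7% of windows under members, against 66.1% of protein-coding windows under a shared region, 16.9% of all lncRNA windows and 47.3% of all protein-coding windows, and it overlaps the CpG count itself: 70.8% of CpG-rich windows held it, against 14.7% of the others. In the same order of the 4 sets, TATAAA was in 11.3%, 6.65%, 15.4% and 13.5%, and CCAAT in 32.6%, 38.2%, 35.8% and 39.1%. TATAAA was thus more frequent under members than at open protein-coding windows, and less frequent than in all windows of either kind. TGTTTAC, the core bound by forkhead factors, was in 4.57%, 2.313%, 4.66% and 2.95%, and TGACTCA, the core bound by AP-1, in 7.15%, 3.12%, 6.36% and 4.59%. TGACGTCA was in 1.19%, 3.26%, 1.001% and 2.40%, GGAATG in 18.7%, 11.8%, 16.9% and 13.2%, and CCGGAAG in 5.10%, 17.4%, 4.05% and 12.3%. AGATAA, the core bound by GATA factors, was in 10.9%, 5.56%, 14.0% and 9.85%, and TAATTA, a homeodomain core, in 4.96%, 2.04%, 6.45% and 4.61%. CCACCAGG, a part of the CTCF motif, was in 2.45%, 2.41%, 1.99% and 2.15%. A match is a description of letters only.

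Members varied in width, evenness and number per gene. The widest region, of 25793 bp, served Gm14488 and Gm39782 at 98.1 ± 0.458, and a region of 19805 bp near Cebpb served Gm14321 and Gm32287 at 97.6 ± 0.631. The most variable members were those that replicate 1 ranked low, such as Gm36734 at 14.2 in replicate 1 and 86.8, 91.7 and 92.4 in the others. Gm33067 stood at 3.65 in replicate 1 and at 87.6, 89.3 and 76.3 in the others. The weakest were Gm15558 at 8.84 ± 6.85 and 1700031A10Rik at 13.3 ± 7.23, and Hnf4aos stood at 14.99 ± 10.2 (SD, n = 4). Several regions were found at 1 gene for 545 lncRNA genes with 2, 74 with 3 and 1 with 4, and 220 members served more than 1 lncRNA gene, so members are not independent of each other.

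The values next to the rule's distance limits differed from region to region, on 2 regions a side. Just inside the 1 kb limit, members at 1700011B04Rik (1000 bp) and 4930428G15Rik (999 bp) stood at 81.7 and 90.6, and just outside it regions at 4930545E07Rik (1001 bp) and Gm38618 (1002 bp) stood at 94.2 and 93.4. Beyond the 2 kb limit from coding genes, members at Gm31677 (2016 bp) and Gm33750 (2030 bp) stood at 48.9 and 95.9, and within it regions at LOC115486434 (1997 bp) and Gm36603 (1992 bp) stood at 38.5 and 90.7. In all, 2335 members, or 60.0%, touched the annotated lncRNA end itself.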

How the data were processed

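For every library the authors deposited a list of narrow peaks. The submitters' processing notes name MACS3 3.0.1 and Bowtie2 2.5.2, besides SAMtools 1.18, FastQC 0.12.1, bedtools 2.31.0, deepTools, Trim Galore and build mm10; their roles and parameters, duplicate removal and any shift of reads for the Tn5 cut are not given in the sources used here. Each peak carried the authors' deposited fold enrichment, a ratio of summit signal to background, with −log10 p and −log10 q values, a score and a summit offset. Ranking by fold inside each list removes its difference in scale between libraries. The −log10 q served 1 alternative, and the score was not used. Read depth is unknown here.

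Peaks on chromosomes 1 to 19 were merged where they overlapped or adjoined, in Python 3.11.15 with pandas 2.3.3, numpy 2.4.6 and scipy 1.17.1, and figures were drawn with matplotlib 3.10.9. Peaks left out on other chromosomes and contigs numbered 4299 to 7882 per library. Distances ran from the nearest base of a region to an annotated gene end of GRCm38.p6. A region took the percentile of its strongest peak, whose summit need not lie in the window. The 298755 merged regions came from the 4 libraries together. The merging and the choice of members were checked on simulated peaks with a planted difference. There the sign-flip test gave its smallest possible p, and its error rate was not checked. No genome sequence was used, only RefSeq start windows of 300 bp.

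Named lncRNAs were those of a fixed list, the 15 strongest, the 8 weakest, the 8 with most regions, the 8 most variable, the 5 widest regions, members whose nearest coding gene was in a neighbour list, and those nearest to the distance limits; the text gives a part of them. The 10 list names without a match in the annotation are not described. The members and lists were chosen with earlier results of these data known. A part of the tissue check, on genes of other organs, is not reported here.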

Additional observations from a re-analysis of the deposited data

Results flagged for a closer look

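Of 93 values set out over the 4 libraries, 26 had 1 library far from the rest by Dixon's ratio, and replicate 1 was that library for 25. The limit used flags about 1 in 20 independent groups by chance, but the count of 26 cannot be compared with that rate. Of the values, 85 were lncRNA regions, some of them, such as Gm36734 and Gm33067, named because they varied most over libraries. All values share the same libraries, and the region of Gm34820 and Gm41301 was counted for each gene. The median fold of members was 16.7 in replicate 1 and 7.18, 6.96 and 6.85 in replicates 2 to 4, in a list whose folds were higher throughout. The excess over other distal regions was 6.23 points in replicate 4 and 4.65 to 4.84 in the others.

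In replicate 1 the percentile lay below the other libraries at strong regions, by small steps: 99.93 at 2700054A10Rik, 97.8 at Gm20554, 95.7 at Gm39054, 95.9 at Kcnq1ot1, 94.9 at Dleu2, and 90.4 at the region of Gm34820 and Gm41301. The steps were wider at Snhg20 with 85.3, Norad with 83.6, Mir205hg with 70.6, Gm15217 and Irx3os with 66.5 each, Pvt1 with 64.4, Lncpint with 57.0 and Mir1a-1hg with 51.9. They were widest at Gm30562 with 41.4, Gata5os and Tbx3os2 with 36.7 each, Snhg1 with 31.4, Sfta3-ps with 28.4, Gm36734 with 14.2, Snhg11 with 6.81, Gm33067 with 3.65 and Gm31677 with 0.247. Replicate 1 had the fewest peaks and peak names marking it as fresh. With lists of equal length, the SD over libraries of the median percentile of members was 1.69, against 5.83 with the full lists. That of the difference from protein-coding ends was 0.205, against 2.78. The part of list length or of the fresh mark in the values of single regions was not tested.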

How the results depend on the processing

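Every alternative left members above other distal regions, below protein-coding ends and starts above 3′ ends, except within width classes. There the excess over other distal regions was −0.969, −1.89 and −0.646 points in the 3 narrower of 4 classes, and that of starts over 3′ ends −2.72 in the narrowest. The difference from protein-coding ends was not split by width. Requiring the strongest summit of every library within 1 kb of the lncRNA end left 2225 regions and 2230 genes. The median percentile of members was 71.8 at a −log10 q of at least 5 and 73.6 with at least 3 of 4 libraries. The share above the 90th percentile in every library was then 9.12% and 10.3%, and it was 12.6% with lists of equal length, 16.4% with a lncRNA window of 0.5 kb and 12.0% with 2.5 kb. The excess over other distal regions was 7.999 with at least 3 of 4 libraries and 2.90 with the 2.5 kb window. Leaving out each library in turn gave 4002 to 4984 regions, 3488 to 3933 genes, medians of 76.8 to 78.2, differences of 5.43 to 6.53, −15.4 to −13.8 and 3.61 to 7.71 points, and shares of 14.1% to 17.3%, the highest without replicate 1. Of 205 named lncRNAs, 75 were no longer members under the summit rule, 41 at the stricter q and 23 beyond 5 kb from coding ends. The percentiles themselves moved by over 1 SD for 150 of the 164 kept at the stricter q and for 88 of the 188 kept with lists of equal length, so a lncRNA's percentile depends on the length and threshold of the lists. The libraries form 1 group, so groups of samples could not be compared. Each test paired sets of regions within a library, which gave 1 difference per library. With 4 libraries no test could pass 0.05, so no call was made or lost.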
